A study of Mus musculus with 48 samples.

Results

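The genes described here carry the signal from the antigen receptors of T and B lymphocytes into the cell. The list holds 37 genes, and its members were taken as every captured region that overlaps 1 of these genes or lies within 5 kb of it. Of the 37 genes, 36 had at least 1 such region, and together they held 250 of the 95882 regions of the series. In the series as a whole, 30232 genes had a region by the same rule. The exception was Ptprc, which encodes the CD45 phosphatase: no region lay in its 112898 bp or the 5 kb on either side.

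Methylated DNA was captured from the intestine of 12 mice with the methyl-CpG-binding domain (MBD) of a methyl-binding protein, and the captured fragments were sequenced. GermFree mice live without microbes, and ConvR mice are, by the series' description, conventionalized, that is, given a microbiota. Duodenum, jejunum and ileum (the small intestine, from its upper to its lower end) and colon were taken from each of 7 GermFree and 5 ConvR mice, which gave 48 libraries in 8 groups of mouse model and section. The comparison of the models asks how the presence of microbes goes with methylation in the gut. No transgene or drug is named in the labels, and the sources used here do not state strain, age or sex.

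An antigen receptor has no enzyme activity of its own. When it binds antigen, Src family kinases such as Lck and Fyn phosphorylate its signalling chains (CD3 and zeta in T cells, Ig alpha and Ig beta in B cells), and the kinases ZAP-70 or Syk dock there and phosphorylate adaptor proteins. Phospholipase C gamma then makes the second messengers that open calcium signalling to NFAT and, through diacylglycerol, protein kinase C, the CARMA complex with Bcl10 and Malt1, NF-kB and Ras. In the gut, antigen receptor signalling takes place in lymphocytes of the epithelium, lamina propria and lymphoid follicles, which are a minority of the cells of the wall. The captured DNA measured here is a mixture of all cells of each section. A lower level may therefore come from less methylation in each cell, from fewer cells that are methylated there or from fewer DNA copies, and these cannot be told apart.

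Most promoters of these genes lay outside captured regions, as did most promoters of all genes. RefSeq lists 48 promoters for 33 of the members (a window from 250 bases before to 50 bases after a start site, 300 bases in all); Cd79b, Malt1, Nfkb1 and Nfatc1 matched none. Captured regions overlapped 8 of the 48 promoters (16.67%), at 6 genes. Among all 32851 listed promoters 8.572% were overlapped. The 6 genes were Zap70, with 3 promoters, Lck, Csk (the kinase that restrains Src family kinases), Lat (the transmembrane adaptor of T cells), Cd79a (Ig alpha) and Inpp5d (the lipid phosphatase SHIP1).

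Methylation is carried by CG pairs, and the promoter windows differed widely in how many they hold. Windows were divided at 12 CG pairs, a value chosen after the data were seen, so the split is a description only. Of the 29 member windows with fewer than 12 CG pairs, 8 (27.59%) were overlapped, against 12.63% of the 19845 such windows of all genes. Of the 19 member windows with 12 or more, 0 were, against 2.384% of 13006. The sequences of the 6 captured promoters are given first, 5′ to 3′ on the strand of the gene, with each CG pair in capitals. Only the bases that lie before every annotated gene are printed (RefSeq, GRCm38.p6, the assembly of mm10).

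Zap70: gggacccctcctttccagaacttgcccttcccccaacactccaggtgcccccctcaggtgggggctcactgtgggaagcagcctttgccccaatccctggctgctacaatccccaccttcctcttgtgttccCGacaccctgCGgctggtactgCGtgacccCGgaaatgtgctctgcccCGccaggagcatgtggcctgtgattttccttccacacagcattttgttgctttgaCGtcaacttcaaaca
Lck: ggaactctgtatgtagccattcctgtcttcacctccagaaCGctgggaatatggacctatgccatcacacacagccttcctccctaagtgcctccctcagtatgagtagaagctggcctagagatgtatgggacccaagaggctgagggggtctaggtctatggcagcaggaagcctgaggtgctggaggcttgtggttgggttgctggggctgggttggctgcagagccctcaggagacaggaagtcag
Lat: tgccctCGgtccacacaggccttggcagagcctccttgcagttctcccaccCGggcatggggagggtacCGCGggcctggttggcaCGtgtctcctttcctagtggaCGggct
Cd79a: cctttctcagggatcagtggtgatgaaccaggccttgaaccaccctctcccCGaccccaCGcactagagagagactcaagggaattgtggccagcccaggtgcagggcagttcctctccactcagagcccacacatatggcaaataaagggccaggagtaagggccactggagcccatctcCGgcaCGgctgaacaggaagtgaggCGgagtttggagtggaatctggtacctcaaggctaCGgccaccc
Inpp5d: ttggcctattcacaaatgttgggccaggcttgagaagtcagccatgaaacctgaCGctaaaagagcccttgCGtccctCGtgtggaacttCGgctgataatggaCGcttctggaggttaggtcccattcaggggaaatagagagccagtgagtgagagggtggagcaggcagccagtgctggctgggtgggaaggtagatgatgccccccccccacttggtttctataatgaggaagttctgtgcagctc
Csk: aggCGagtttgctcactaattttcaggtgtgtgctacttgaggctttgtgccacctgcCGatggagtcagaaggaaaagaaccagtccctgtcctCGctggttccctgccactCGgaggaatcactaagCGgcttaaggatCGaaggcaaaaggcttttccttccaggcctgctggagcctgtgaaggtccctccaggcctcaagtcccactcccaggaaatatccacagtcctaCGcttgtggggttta

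These stretches lie at chr1:36761548-36761797 (plus strand), chr4:129573642-129573891 (minus), chr7:126369706-126369818 (minus), chr7:24897247-24897496 (plus), chr1:87620062-87620311 (plus) and chr9:57653632-57653881 (minus). They hold 6, 1, 6, 6, 5 and 7 CG pairs in that order. Each stretch has 250 bases except that of Lat, which has 113 because the annotated gene reaches into its window. A pair of windows that no region overlapped is shown for contrast, Rel (the c-Rel subunit of NF-kB, 37 CG pairs in the stretch shown, chr11:23770970-23771219, minus strand) and Cd3d (CD3 delta, 0 CG pairs in the 233 bases shown and 1 in its whole window, chr9:44981536-44981768, plus strand).

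Rel: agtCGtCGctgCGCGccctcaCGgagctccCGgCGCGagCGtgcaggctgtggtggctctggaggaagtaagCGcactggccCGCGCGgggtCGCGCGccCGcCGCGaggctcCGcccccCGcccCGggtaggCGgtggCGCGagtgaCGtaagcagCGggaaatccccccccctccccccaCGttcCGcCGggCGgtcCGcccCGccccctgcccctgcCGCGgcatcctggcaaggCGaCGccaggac
Cd3d: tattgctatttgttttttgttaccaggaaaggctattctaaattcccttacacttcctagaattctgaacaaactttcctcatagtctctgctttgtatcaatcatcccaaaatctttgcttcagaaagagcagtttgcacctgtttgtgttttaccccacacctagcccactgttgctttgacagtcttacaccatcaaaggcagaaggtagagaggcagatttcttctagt

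The Rel stretch is dense in CG pairs and the Cd3d stretch has none, and neither lay in a captured region. Of the 40 member promoters without a region, 38 belong to a gene with one (the others are those of Ptprc). At these 38 the nearest region of the gene lay a median of 4100 bp from the start site (152 to 47686 bp).

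The captured promoter regions reached well past the promoters themselves. The region over the first 2 Zap70 promoters ran from 36761521 to 36765805 on chromosome 1, and a separate one from 36778447 to 36779130 covered the third, inside the gene. At Lck it ran from 129571170 to 129574232 on chromosome 4, and at Lat from 126366781 to 126373644 on chromosome 7, where 42.61% of its bases lay in Lat and it was shared with Spns1. Those of Cd79a (24897297 to 24899474, chromosome 7), Inpp5d (87619939 to 87621640, chromosome 1) and Csk (57652037 to 57654895, chromosome 9) each crossed the start of the gene. All coordinates are in mm10.

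**Figure D1:**
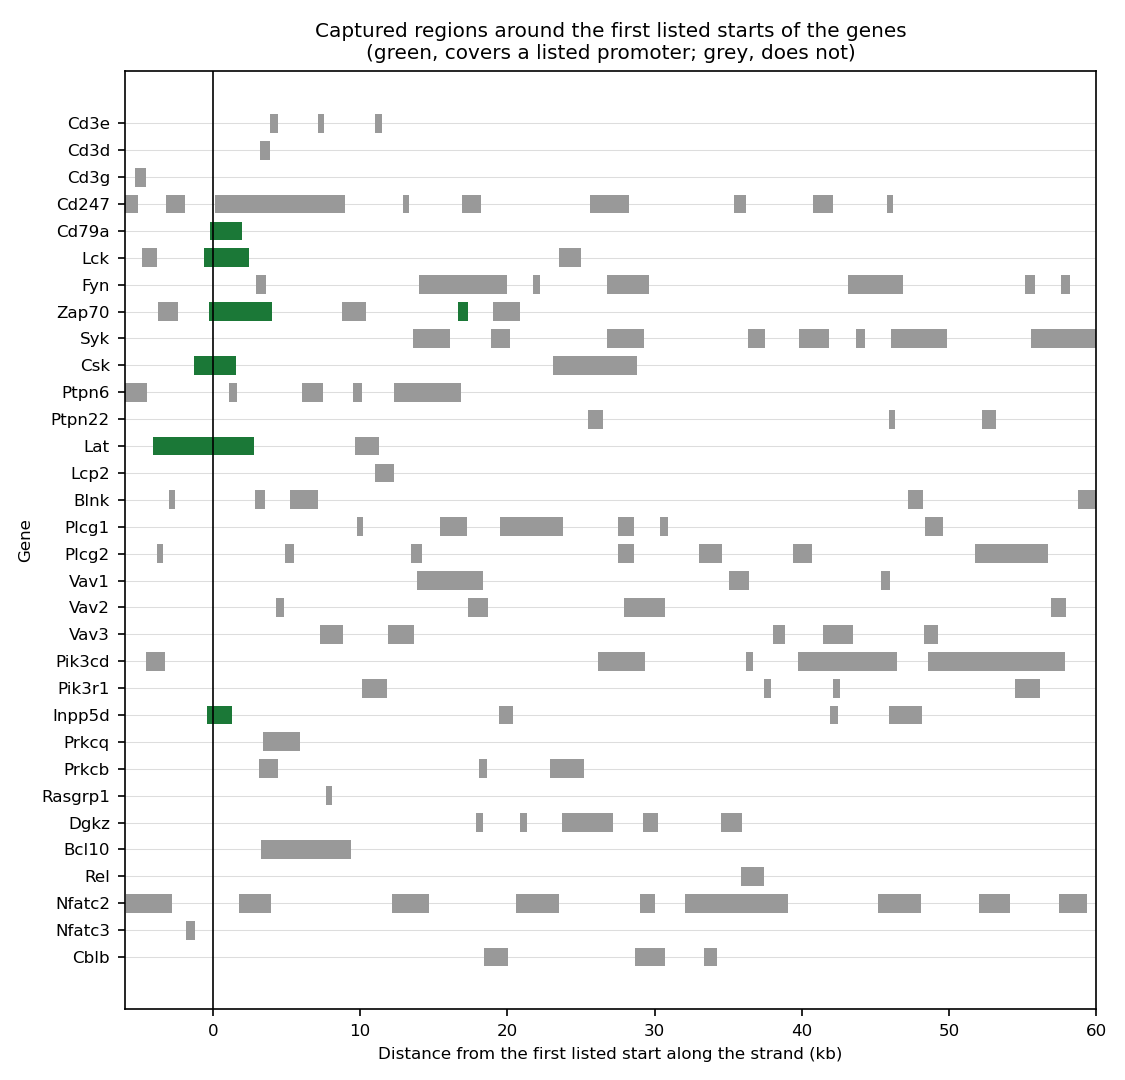
Captured regions of the members with a listed promoter, as bars to scale along the distance from the first listed start in kb (from 6 kb before to 60 kb after it), 1 row a gene. Green bars overlap a listed promoter and stand at 6 genes only; the green bar farther to the right at Zap70 overlaps its last listed promoter.

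By the rule that assigned them, 232 of the 250 regions overlapped a gene of the list (216 wholly inside it, 16 in part) and 18 lay only in the 5 kb beside one. At Cd3g, Malt1, Rel and Nfatc3 no region overlapped the gene, so their values come from DNA beside it. Counted as pairs of region and gene, 92.43% overlapped, against 77% over all genes, with no account of gene length. Regions were 415 to 12227 bp wide (median 1490 bp, against 1208 bp for all regions), and 51 were also assigned to another gene. Prkcb, the protein kinase C beta of B cell signalling, had the most regions (28), followed by Fyn and Nfatc2 with 19 each and Plcg2 with 18. The share of a gene and its 5 kb sides that lay in regions ran from 53.35% at Lat and 51.07% at Nfatc1 down to 1.394% at Nfatc3, with a median of 13.48% over the members.

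Levels are given as CPM, counts relative to the depth of the library, with each library scaled by its total over all regions and by edgeR's TMM factor. To compare genes, CPM was divided by the kb of region captured at the gene, so that a large gene does not count for more. On that scale the members ran from 4.70 to 8.38 CPM per kb with a median of 5.55, and the median of all genes was 5.71. Cd3e, the CD3 epsilon chain that every T cell receptor needs, was highest at 8.38 CPM per kb (percentile 93.15 among all genes). Rasgrp1, which links diacylglycerol to Ras, stood at 8.25, and Nfatc3, an NFAT factor, at 7.87. Bcl10, the Malt1 partner, was lowest at 4.70 (percentile 4.257), below Pik3cd (the leukocyte catalytic subunit p110 delta of phosphoinositide 3-kinase) at 4.96. The 3 highest genes had few and narrow regions (2 or 3 each), and Bcl10 had 1 region of 6143 bp. Across member regions the highest values per kb stood at narrow regions, and the order of genes was not corrected for region width. No test was made between genes.

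**Figure D2:**
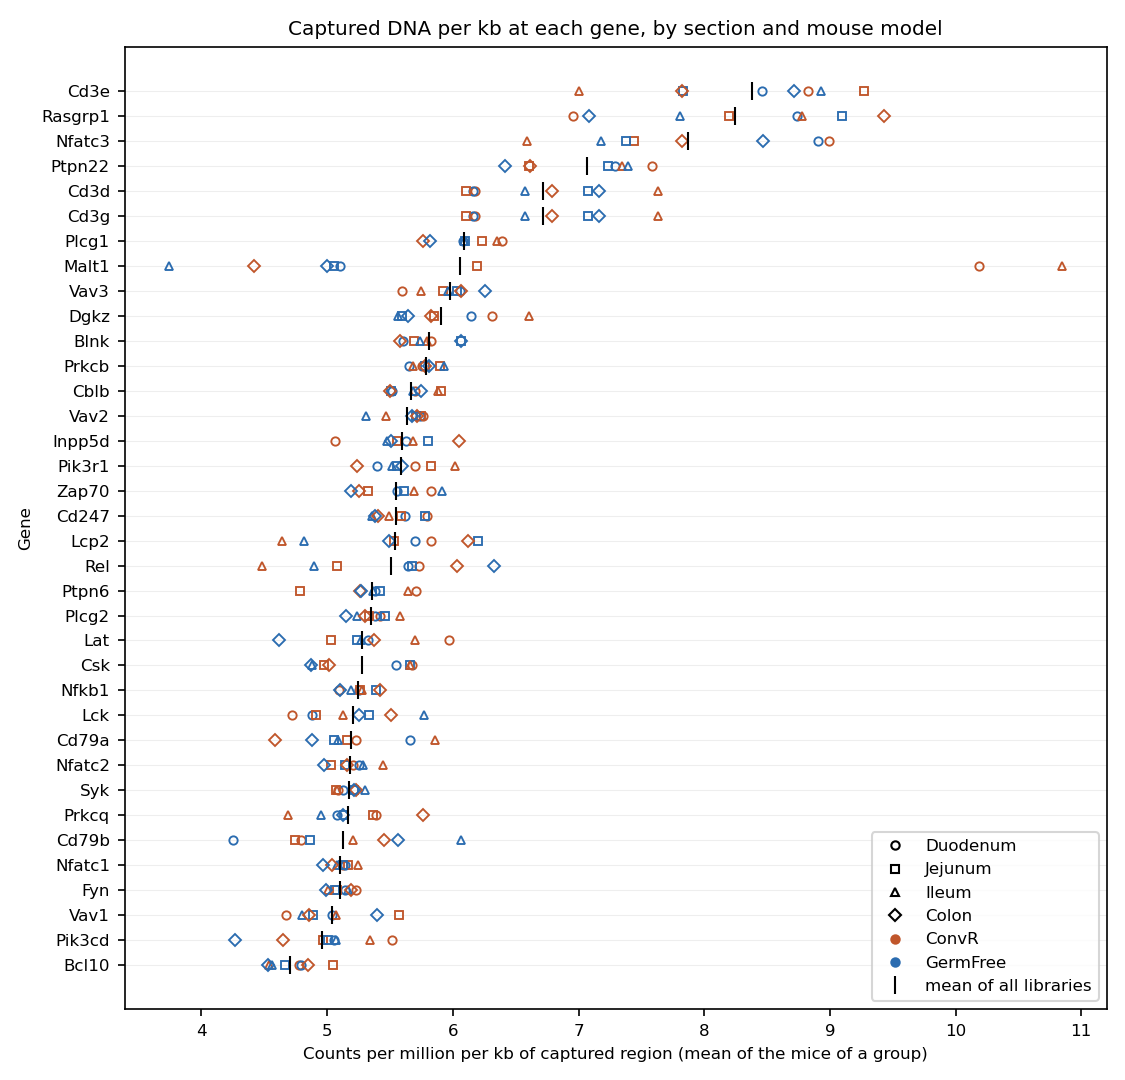
CPM per kb of captured region (x axis) at each of the 36 members (y axis), in order of the mean over all libraries (black tick). Each open symbol is the mean of the mice of 1 group: shape gives the section, colour the mouse model. Most genes keep to a narrow band near 5 to 6, and Malt1 is spread from the ileum of GermFree to that of ConvR mice.

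The depth behind these values was moderate. Counts over all regions ran from 1007560 to 3033782 a library (median 2122529), and regions of the members took 0.266% to 0.319% of them. A member region had a median of 18 counts a library (0 to 183), against 15 for all regions. Summed over its regions, a gene had between 10 counts (Cd3d and Cd3g, which share their single region) and 646 (Nfatc1) in the median library. The marker lists of 6 cell types cannot check the tissue here, since captured DNA is not expression. Of their genes, 10 of 11 had a region for epithelium (Cdx2 had none), 6 of 7 for myeloid cells (Adgre1 had none), and each gene of the smooth muscle, T cell, B cell and endothelium lists had one.

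No difference between GermFree and ConvR mice passed the test at the 36 member genes when the 4 sections of each mouse were added. Of the 36 genes 0 passed an adjusted p of 0.05 in edgeR's quasi-likelihood test and 0 in DESeq2. An unadjusted p under 0.05 in edgeR was reached by 3 (8.333%), against 7.618% of all genes. Over all 30232 genes 0.496% passed in edgeR. The median log2 difference (GermFree minus ConvR) was -0.0068 over the members and 0.0001 over all genes, and 14 of the 36 were above 0. For 35 of the 36 genes the 95% interval lay within 0.5 on either side of 0, so larger changes of the summed level are outside the interval of each of these genes.

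By role, the members gave small differences of both signs. The CD3 and zeta chains (Cd3e, Cd3d, Cd3g, Cd247) had a median log2 difference of 0.0048, with 3 of 4 above 0. Cd3d and Cd3g share their only region, so their values are the same counts. Cd247, the zeta chain, stood at 150.2 ± 5.43 CPM (SD) in the 7 GermFree mice and 150.4 ± 3.28 in the 5 ConvR mice. Cd79a and Cd79b, the B cell receptor chains, had a median of 0.012, and Cd79a stood at 11.2 ± 0.868 CPM in GermFree and 11.3 ± 1.46 in ConvR mice. The 7 kinases and phosphatases near the receptor with a region had a median of 0.0069. Among them Zap70 stood at 55.2 ± 3.66 CPM in GermFree and 55.3 ± 2.27 in ConvR mice, and Syk, its counterpart in B cells, at 123.8 ± 4.22 and 121.8 ± 4.04. The adaptors Lat, Lcp2 and Blnk had a median of 0.0052, the phospholipase C and Vav genes -0.015, and the phosphoinositide 3-kinase genes with Inpp5d -0.047. The diacylglycerol branch (Prkcq, Prkcb, Rasgrp1, Dgkz) had a median of -0.032, the genes of the CARMA complex and NF-kB -0.024 and the NFAT genes -0.011. Cblb, a ubiquitin ligase that dampens receptor signalling, stood at -0.033.

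The 5 genes with the smallest p were Malt1, Pik3cd, Dgkz, Vav3 and Lck. Malt1, the protease of the CARMA complex, had a log2 difference of -0.52 (SE 0.20, adjusted p 0.538). Its ConvR mice 1 to 5 had 24.6, 9.36, 15.4, 7.55 and 8.42 CPM, and its GermFree mice 6.27 to 9.46 (median 8.72). ConvR mice 1 and 3 stood above every GermFree mouse, and the other ConvR mice lay in their range. Pik3cd had 98.95, 115.6, 114.2, 105.6 and 105.7 CPM in the ConvR mice and 100.7 to 104.9 (median 102.6) in the GermFree mice. ConvR mouse 1 was below all GermFree mice and the 4 other ConvR mice above them (log2 -0.08, SE 0.04, adjusted p 0.599). Dgkz, the diacylglycerol kinase that ends this signal, had a log2 difference of -0.09 (adjusted p 0.637), Vav3, an exchange factor, 0.06 (adjusted p 0.738) and Lck 0.08 (adjusted p 0.754).

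**Figure D3:**
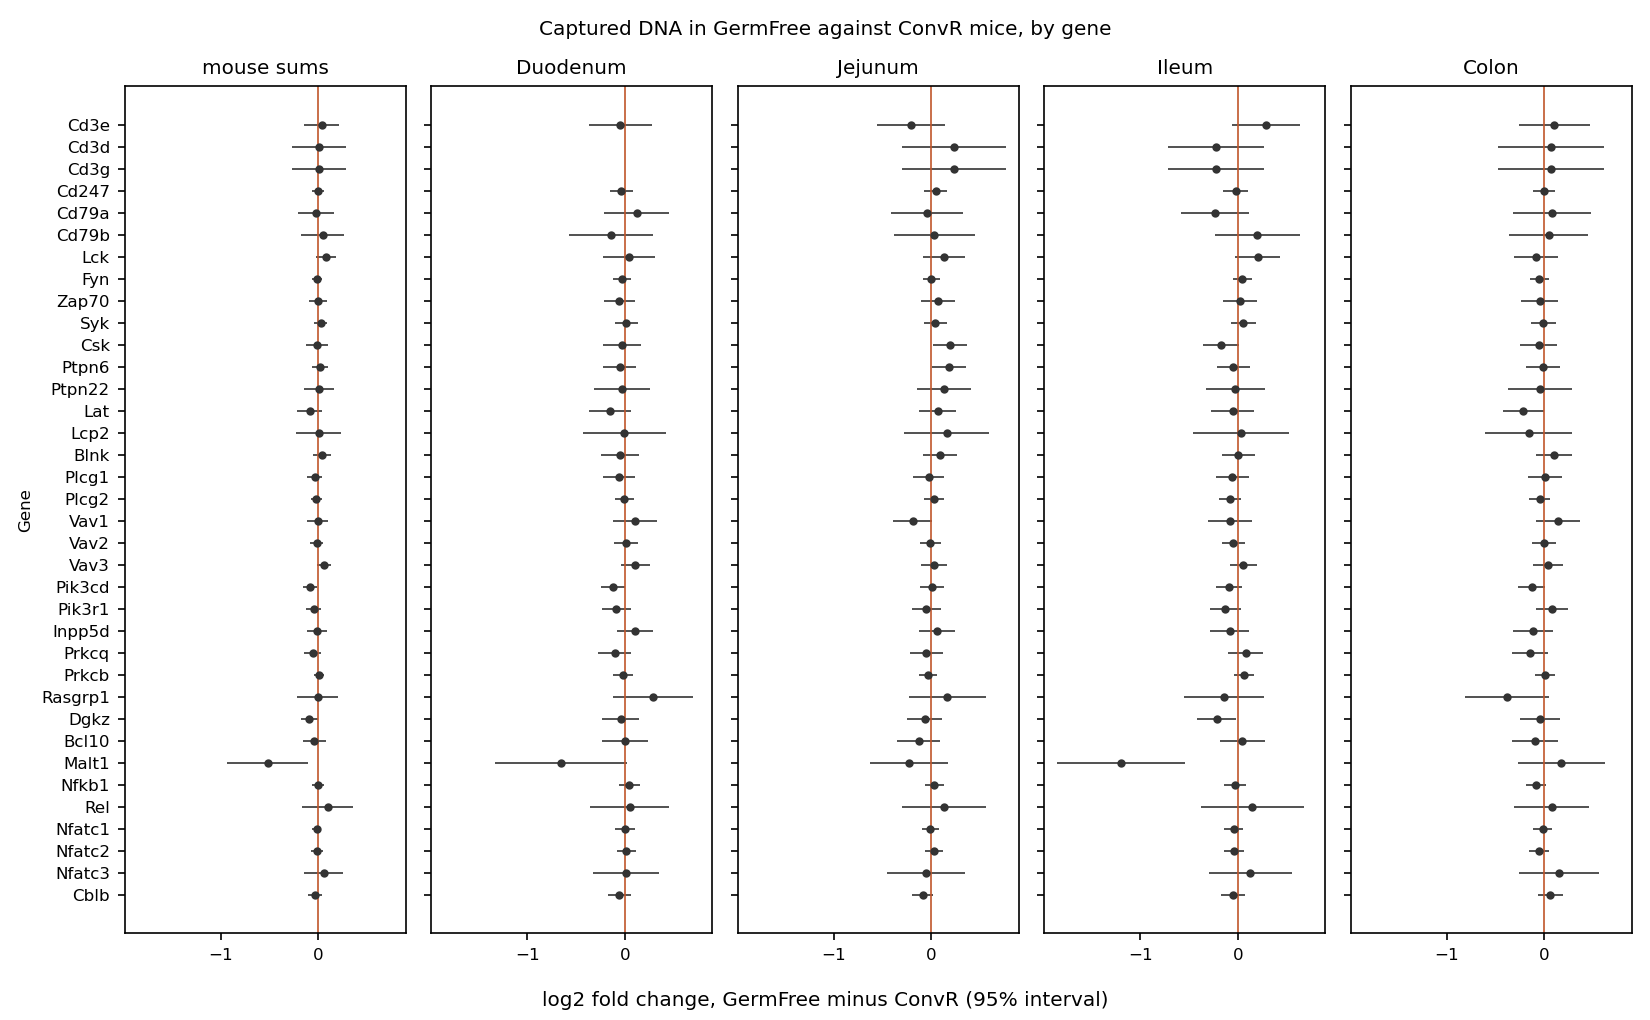
log2 difference, GermFree minus ConvR, of the captured DNA at each member gene (points) with its 95% interval (bars), for the summed sections and for each section; Cd3d and Cd3g had too few counts for a test in duodenum. Malt1 stands apart at -0.52 in the sums, -0.65 in duodenum and -1.20 in ileum, with wide intervals. The rest lie near 0 in the sums and scatter more within sections, for example Rasgrp1 at 0.29 in duodenum and -0.38 in colon.

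Within each section the result for genes was the same in number. In duodenum 0 of the 34 members tested passed (0.435% of all genes), 0 by DESeq2. An unadjusted p under 0.05 in edgeR was found at 0 of them, against 7.971% of all genes. In jejunum 0 of 36 passed (0.343% of all genes), 0 by DESeq2. Here 2 (5.556%) had an unadjusted p under 0.05, against 5.372% of all genes. In ileum 0 of 36 passed (0.314%), 0 by DESeq2, with 2 under 0.05 (5.556%, against 5.93% of all genes). In colon 0 of 36 passed (0.542%), 0 by DESeq2, with 1 under 0.05 (2.778%, against 8.539%). The typical 95% interval of a gene in 1 section reached 0.176 to 0.189 on either side of its log2 value.

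In duodenum the smallest p belonged to Pik3cd (log2 -0.12), Malt1 (-0.65), Vav3 (0.11), Rasgrp1 (0.29) and Lat (-0.15), with adjusted p from 0.638 to 0.783 in edgeR. In jejunum they belonged to Csk (0.19), Ptpn6 (0.18), Vav1 (-0.19), Cblb (-0.09) and Bcl10 (-0.13), with adjusted p from 0.884 to 0.969. Ptpn6 encodes SHP-1, a phosphatase that restrains receptor signalling, and Vav1 is the exchange factor of blood cells. In jejunum all 7 genes of the receptor-proximal group had log2 values above 0 (median 0.13), against 49.96% of all genes. In colon 0 of the same 7 lay above 0 (median -0.05), against 48.98% of all genes. No member passed in either section. Among the role groups only this one is described within sections, and no group was tested as a set. In ileum the 5 genes were Malt1 (-1.20), Dgkz (-0.22), Csk (-0.18), Lck (0.20) and Cd3e (0.29), with adjusted p from 0.179 to 0.888. Without ConvR mouse 4, Malt1 passed in ileum (-1.39, adjusted p 0.0422 in edgeR). In colon they were Lat (-0.22), Pik3cd (-0.13), Rasgrp1 (-0.38), Nfkb1 (-0.09) and Prkcq (-0.15), with adjusted p from 0.561 to 0.694. Prkcq encodes protein kinase C theta of T cells.

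Csk had log2 values of opposite sign in jejunum and ileum, with no pass in either. In jejunum it stood at 48.8 ± 5.66 CPM (SD) in the 7 GermFree mice and 42.9 ± 2.12 in the 5 ConvR mice, and in ileum at 42.1 ± 3.38 and 48.8 ± 4.86. Of its 2 regions, the one at the far end of the gene (57624794 to 57630555) is shared with Lman1l, and without shared regions the log2 difference in ileum was 0.21 (adjusted p 0.966). A joint test of whether the model difference varies by section gave p 0.0435 for Csk (adjusted p 0.915) and 0.0484 for Malt1 (adjusted p 0.915). In that test 0 of 36 members passed (0% of all genes), and 0 passed in DESeq2. An unadjusted p under 0.05 in edgeR was reached by 2 (5.556%), against 5.282% of all genes.

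Single regions gave 1 difference between the models, beside Malt1. Among the members' regions, 0 of 250 passed in the summed sections (0.475% of all regions) and 0 of 216 in duodenum (0.466%). In jejunum 0 of 221 passed (0.344%) and in colon 0 of 206 (0.54%). DESeq2 called 0 in each of these comparisons. At an unadjusted p under 0.05 in edgeR stood 9 in the sums (3.6%, against 6.631% of all regions) and 16 in duodenum (7.407%, against 7.009%). There were 10 in jejunum (4.525%, against 5.352%) and 12 in colon (5.825%, against 7.444%). In ileum 1 of 236 passed (0.365% of all regions) and 0 by DESeq2. Of these 236, 9 (3.814%) had an unadjusted p under 0.05, against 5.134% of all regions. In the joint test over sections 0 of 250 passed (0%) and 0 by DESeq2. Its unadjusted p was under 0.05 at 13 (5.2%), against 4.958% of all regions.

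The region that passed is 1770 bp long, at chr18:65427122-65428891, and it is the only one assigned to Malt1. It lies 2047 bp outside the annotated gene. In ileum, ConvR mice 1 to 5 had 51.6, 10.1, 17.5, 8.34 and 9.41 CPM, and GermFree mice 3.997 to 9.002 (median 6.28). ConvR mouse 1 was far above all other mice, ConvR mouse 3 next, and ConvR mouse 4 lay within the GermFree range. The log2 difference was -1.21 (SE 0.26) with an adjusted p of 0.006 in edgeR. The call was lost without ConvR mouse 1 (-0.71, adjusted p 0.375) and without ConvR mice 1 and 3 together (-0.50, adjusted p 1). With all mice, DESeq2 gave -1.504 (adjusted p 0.521). In edgeR the region still passed without ConvR mouse 3 alone (-1.17, adjusted p 0.0171) or ConvR mouse 4 alone (-1.40, adjusted p 0.000643). Sample titles carry a code that pairs 1 ConvR with 1 GermFree mouse in 5 cases. In ileum the GermFree mouse was lower within each of the 5 pairs (log2 ratio of CPM -2.78 to -0.06). These are the same values that gave the call. In the sums the GermFree mouse was lower in 3 of the 5 pairs, and in duodenum, for Malt1 as a gene, in 2.

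The same mice were high in duodenum, where ConvR mice 1 to 5 had 43.4, 7.73, 25.9, 7.01 and 7.06 CPM and GermFree mice 4.86 to 13.2 (median 9.68). In jejunum ConvR mice 1 and 3 had 12.7 and 17.4 CPM, the other ConvR mice 7.83 to 8.96, and GermFree mice 6.56 to 11.8. In colon ConvR mice 1 and 3 had 5.16 and 6.46 CPM, inside or below the range of the GermFree mice (5.92 to 11.5). The excess of these 2 mice was thus seen in the small intestine and not in colon. The joint test of a model difference that varies by section gave this region a p of 0.0092, with an adjusted p of 0.986.

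Among the other regions, those with the smallest p did not pass. In the sums they were a region of Lck at 129548634 to 129550165 (log2 0.30, adjusted p 0.497; 8.40 ± 0.824 CPM in GermFree and 6.82 ± 0.349 in ConvR mice) and 1 of Dgkz at 91942243 to 91942696 (-0.39, adjusted p 0.558), after the Malt1 region (-0.52, adjusted p 0.312). Without ConvR mouse 4 the Malt1 region passed in the sums as well (-0.65, adjusted p 0.0431). In duodenum they were 2 of Fyn, at 39532993 (-0.63) and 39487679 (0.46), of opposite sign within 1 gene, and 1 of Prkcb at 122626606 (-0.46), with adjusted p from 0.449 to 0.532 in edgeR. In jejunum they were 1 of Nfkb1 at 135601477 (0.44), the first promoter region of Zap70 (0.32) and 1 of Vav2 at 27345187 (-0.43), with adjusted p from 0.647 to 0.848. In ileum, after Malt1, they were the Csk region named above (-0.39) and 1 of Nfatc2 at 168503894 (-0.37), with adjusted p of 0.341 and 0.814. In colon they were 1 of Blnk, the adaptor of B cells, at 40990664 (0.85), 1 of Nfatc1 at 80659851 (-0.30) and 1 of Prkcq at 11289803 (-0.33), with adjusted p from 0.393 to 0.511.

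The 7 regions over promoters did not pass in any comparison. In the summed sections the Zap70 region at its first start had 22.7 ± 1.84 CPM (SD) in the 7 GermFree mice and 21.3 ± 1.52 in the 5 ConvR mice. The Lck region had 14.6 ± 1.36 and 14.4 ± 2.05, the Lat region 34.2 ± 2.22 and 36.9 ± 5.50, and the Cd79a region 11.2 ± 0.895 and 11.4 ± 1.503. The Csk region had 15.8 ± 1.45 and 14.2 ± 1.10, and the Inpp5d region 9.38 ± 0.963 and 9.53 ± 0.894. The log2 differences of the 7 regions ran from -0.10 to 0.15. In colon the Inpp5d region had 8.16 ± 2.42 CPM in GermFree and 11.2 ± 1.32 in ConvR mice (log2 -0.46, 95% interval -0.85 to -0.07, adjusted p 0.559 in edgeR).

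**Figure D4:**
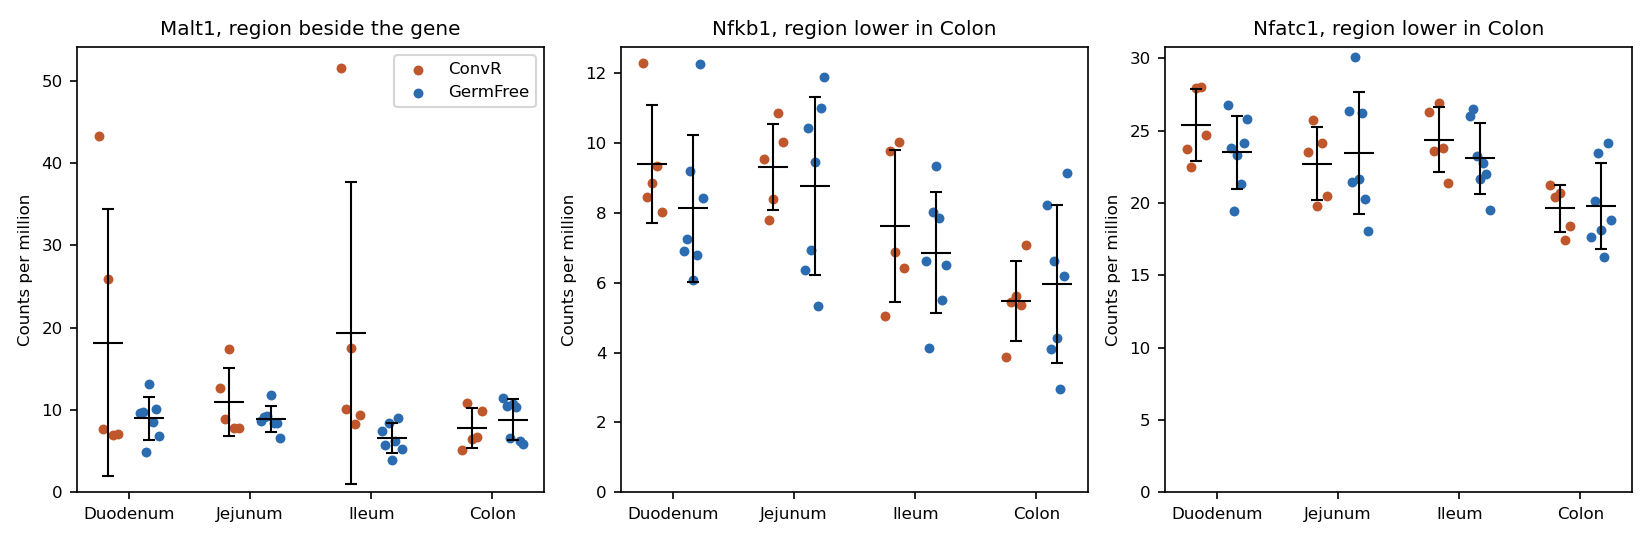
CPM of each mouse (points) by section and model, with mean and SD (black), for the region beside Malt1 and for the regions of Nfkb1 and Nfatc1 that were lower in colon. In the first panel ConvR mouse 1 stands at 43.4 in duodenum and 51.6 in ileum; in the other panels colon lies below the mean of a mouse's other sections in 10 (Nfkb1) and 11 (Nfatc1) of 12 mice.

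The sections differed at 1 gene of the list. Colon was compared with the mean of the 3 small intestine sections, with equal weight to the models. Of the 36 members 1 passed in edgeR and 1 in DESeq2, while 5.13% of all genes passed. These 1552 genes became 705 without ConvR mouse 5 and 2424 without ConvR mouse 3. The median log2 difference (colon minus small intestine) was -0.012 over the members and -0.0040 over all genes, and 17 of 36 were above 0. The gene that passed was Pik3cd, which was lower in colon with a log2 difference of -0.21 (SE 0.036, adjusted p 0.000292). Across the 12 mice its level in colon was 76.4 to 108.3 CPM (median 94.9) and its mean in the small intestine 103.7 to 119.2 (median 106.8). Colon was lower than the small intestine in 12 of 12 mice, although the ranges over mice overlap. In ConvR mice the means were 116.3 ± 8.87 CPM in duodenum, 104.7 ± 4.10 in jejunum, 112.5 ± 11.97 in ileum and 98.0 ± 7.58 in colon (SD, n = 5). In GermFree mice they were 106.5 ± 4.61, 105.5 ± 5.41, 106.8 ± 5.00 and 90.0 ± 7.15 (n = 7).

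The region of Pik3cd that passed lies mostly in the neighbouring gene and covers only the far end of Pik3cd itself. The 5 regions of Pik3cd were not tested against each other. Pik3cd runs along the minus strand from 149702566 to 149649168 on chromosome 4, and Clstn1, which encodes calsyntenin 1, ends at 149648899. Of its 5 regions, the one at 149640808 to 149650169 passed by itself, with a log2 difference of -0.29 (SE 0.070, adjusted p 0.00872), and colon was lower in 11 of 12 mice. Only 10.7% of its bases lie in Pik3cd, while most lie in Clstn1, to which it was also assigned. It had 39.5 ± 8.83 CPM in colon and 48.3 ± 5.04 in the small intestine (n = 12). The next region, at 149652255 to 149658977, lies wholly in Pik3cd and within 5 kb of Clstn1, and had a log2 difference of -0.22 (adjusted p 0.072). It passed when libraries were scaled by their totals (-0.25, adjusted p 0.0318) or by loess offsets (-0.25, adjusted p 0.0312), and without ConvR mouse 4 (-0.26, adjusted p 0.0467) or GermFree mouse 3 (-0.24, adjusted p 0.0416). The others gave -0.41 (149662006, adjusted p 0.241), 0.08 (149669331, adjusted p 0.747) and -0.16 (149701972, adjusted p 0.615). Without the 2 regions shared with Clstn1, Pik3cd did not pass (log2 -0.07, adjusted p 0.687).

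**Figure D5:**
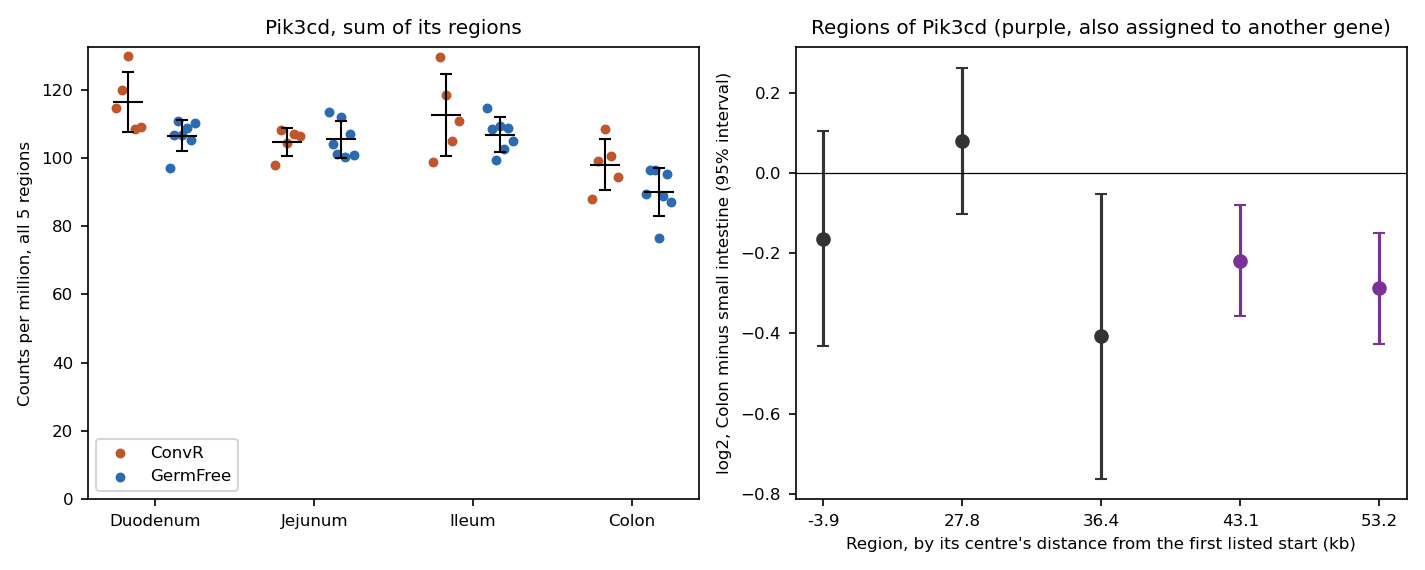
Left, CPM at Pik3cd summed over its 5 regions for each mouse (points) by section and model, with mean and SD (black). Right, log2 difference colon minus small intestine with 95% interval for each of the 5 regions, by the distance of the region's centre from the first listed start; the 2 regions also assigned to Clstn1 (purple) stand at -0.22 and -0.29.

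Of the members' regions, 3 of 250 were called different in colon and all 3 were lower there, against 2.4% of all regions called in either direction. The number called over all regions, 2299, ran from 769 without ConvR mouse 5 to 3878 without ConvR mouse 3. DESeq2 called 2 of the 3. In edgeR 36 of the 250 (14.4%) had an unadjusted p under 0.05, against 15.03% of all regions. Beside that of Pik3cd, the called regions lay inside genes for NF-kB and NFAT factors. At Nfkb1, which encodes the p105 precursor of NF-kB p50, it lay at 135623463 to 135624606 on chromosome 3. Its level was 2.95 to 9.14 CPM in colon (median 5.52) and 6.63 to 10.1 in the small intestine (median 8.22), and colon was lower in 10 of 12 mice (log2 -0.55, SE 0.14, adjusted p 0.0122). At Nfatc1 it lay at 80695810 to 80700384 on chromosome 18, with 16.2 to 24.1 CPM in colon (median 19.5) and 21.1 to 26.4 in the small intestine (median 23.9). Colon was lower in 11 of 12 mice there (log2 -0.26, SE 0.075, adjusted p 0.0342), and the adjusted p was 0.0721 in DESeq2. The levels in colon and small intestine overlapped at both regions.

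These calls were near the threshold. With the mouse as a block, since the 4 sections come from the same animals, 5 of the 250 regions passed (3.78% of all regions in that fit): the same 3, the second Pik3cd region (log2 -0.23, adjusted p 0.037) and 1 of Vav2 at 27293818 to 27295842, which was higher in colon (0.34, adjusted p 0.039). The Pik3cd region did not pass without ConvR mouse 2 (-0.25, adjusted p 0.0654), ConvR mouse 5 (-0.27, adjusted p 0.0601) or GermFree mouse 4 (-0.22, adjusted p 0.0763), nor the Nfkb1 region without ConvR mouse 4 (-0.51, adjusted p 0.053) or without ConvR mice 1 and 3 together (-0.50, adjusted p 0.0529). The Nfatc1 region did not pass without any 1 of ConvR mice 1, 2, 4 or 5 or GermFree mice 1, 4 or 5 (-0.23 to -0.27, adjusted p 0.0541 to 0.119). The gene level of Pik3cd passed whichever mouse was left out, and without ConvR mouse 3 Zap70 passed too (-0.18, adjusted p 0.0254).

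No gene of the marker lists passed in the same comparison. The medians of these lists were all lower than those of the members (-0.012) and of all genes (-0.0040). The median log2 difference of colon against small intestine was -0.08 for the epithelium list (3 of 10 above 0), -0.10 for smooth muscle (0 of 6), -0.10 for endothelium (1 of 5), -0.04 for T cells (3 of 8), -0.04 for B cells (2 of 6) and -0.04 for myeloid cells (2 of 6). The summed level of the T cell list ran from 614.9 to 721.6 CPM in colon and from 650.8 to 739.5 in the other sections, and that of the smooth muscle list from 125.4 to 155.4 and from 131.7 to 178. The part of the cell mix in the lower values of colon was not tested.

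The other genes with the smallest p in this comparison did not pass. Rel had a log2 difference of 0.27 (adjusted p 0.221), with 7.12 to 12.3 CPM in colon and 5.20 to 10.5 in the small intestine. Its only region lies 1775 bp outside the gene and is shared with Pus10. Csk stood at -0.11 (adjusted p 0.235), Ptpn22, the phosphatase that acts on Lck, at -0.17 (adjusted p 0.271) and Prkcq at 0.10 (adjusted p 0.281). The CD3 and zeta chains had a median of 0.037 with 3 of 4 above 0, where Cd3d and Cd3g are again the same counts. Cd247 had 145.8 ± 3.62 CPM in the colon of ConvR and 145.3 ± 5.48 in that of GermFree mice.

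Between ileum and duodenum, the ends of the small intestine, no member passed the test. In edgeR 0 of 36 genes passed (0.00992% of all genes), and DESeq2 called 0. An unadjusted p below 0.05 in edgeR was reached by 4 genes (11.11%), against 4.879% of all genes. Of the regions 0 of 250 passed (0.00209% of all regions), and DESeq2 called 0. Among them 14 (5.6%) reached an unadjusted p below 0.05, against 4.74% of all regions. Nfatc3, whose 2 regions both lie beside the gene and are shared with other genes, had the smallest p. Its level was 8.18 to 12.7 CPM in duodenum (median 10.1) and 5.93 to 10.8 in ileum (median 7.61). It was lower in ileum in 11 of 12 mice (log2 -0.35, SE 0.13, adjusted p 0.893). Vav2 stood at -0.10, Prkcq at -0.13, Rel at -0.33 and Lck at 0.16 (adjusted p 1 each). The 3 regions with the smallest p were 2 of Vav2, at 27408922 (0.48) and 27314277 (-0.64), again of opposite sign within 1 gene, and 1 of Cd247 at 165829450 (-0.47), with adjusted p from 0.922 to 1.

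A wider list of 103 other genes of the pathway (coreceptors, further kinases and adaptors, calcium and Ras signalling, the NF-kB branch) had 93 tested genes. It too was chosen with earlier results known. In the summed sections 1 of the 93 was higher and 1 lower in GermFree mice, against 0.496% of all genes called. Rasgrp3, the exchange factor of B cells that activates Ras, had 181.2 to 280.2 CPM in ConvR mice (median 214.7) and 256.6 to 305.1 in GermFree mice (log2 0.33, SE 0.07, adjusted p 0.0207). Its groups overlapped: ConvR mice 1 and 4 lay within the GermFree range. Sos2, another Ras exchange factor, had 91.2 to 112.4 CPM in ConvR and 80.1 to 93.5 in GermFree mice (log2 -0.26, SE 0.05, adjusted p 0.00163), and ConvR mouse 3 lay within the GermFree range. Sos2 passed under each of the 23 alternatives run for the sums and Rasgrp3 under 14 of 23. Rasgrp3 did not pass in DESeq2 (0.33, adjusted p 0.434), nor without any 1 of ConvR mice 2, 3 or 5 or GermFree mice 1, 3, 5 or 7 (0.26 to 0.32, adjusted p 0.0504 to 0.129 in edgeR).

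By section (0.435% of all genes called in duodenum, 0.343% in jejunum, 0.314% in ileum and 0.542% in colon), Rasgrp3 passed in duodenum (log2 0.44, adjusted p 0.00618) and colon (0.43, adjusted p 0.00316) and Sos2 in jejunum (-0.33, adjusted p 0.000784) and colon (-0.35, adjusted p 0.0081). In ileum 0 of 92 passed, with Rasgrp3 at 0.35 (adjusted p 0.138) and Sos2 at -0.13 (adjusted p 0.897). Rasgrp3 did not pass in duodenum without ConvR mouse 5 (0.38, adjusted p 0.0748) or in colon with DESeq2 (0.41, adjusted p 0.785), and Sos2 did not in colon without ConvR mouse 5 (-0.31, adjusted p 0.0774). In ileum Rasgrp3 passed without ConvR mouse 1, ConvR mouse 4 or GermFree mouse 4 (0.41 to 0.45, adjusted p 0.000669 to 0.0425), and without ConvR mice 1 and 3 together (0.37, adjusted p 0.0249). The difference between sections was tested for both genes and did not pass (adjusted p 0.94 and 0.951). Rasgrp1, the member that does the work of Rasgrp3 in T cells, stood at 8.69 ± 0.929 CPM in GermFree and 8.59 ± 1.10 in ConvR mice. Rasgrp3 was also higher in colon than in the small intestine (log2 0.21, adjusted p 0.0332), 1 of 93 genes where 5.13% of all genes passed. It did not pass there in DESeq2 (0.21, adjusted p 0.104) or without any 1 of ConvR mice 1, 2, 4 or 5 or GermFree mice 4, 6 or 7 (0.17 to 0.21, adjusted p 0.0519 to 0.126). Without ConvR mouse 3, Sos2 passed in that comparison too (0.15, adjusted p 0.0263). Between ileum and duodenum 0 of 93 passed (0.00992% of all genes).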

How the data were processed

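Sheared DNA (about 250 bp) was captured with an MBD kit and read as 100-bp single ends, per the labels' protocols. The deposited table holds raw counts of reads per region, and the deposited peak file gives each region's position and a peak score, which was not used as a measurement. Trim Galore 0.3.7, cutadapt 1.4.2, MACS2, featureCounts and mm10 are named in the submitters' processing notes. For the aligner, the treatment of duplicates and any pooling of samples for peak calling, the sources used here say nothing. Each region's name holds the word GermFree, and whether ConvR libraries entered the peak calling is not stated.

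Counts were summed over the regions that overlap a RefSeq gene or lie within 5 kb of it, so a region between genes counts for each of them. Capture depends on methylation, CG density and copy number. Genes and regions were tested with edgeR's quasi-likelihood test (edgeR 4.0.16, R 4.3.3, TMM scaling, edgeR's default filter on low counts), with Benjamini-Hochberg adjustment over all features and a threshold of 0.05. Models were compared in the summed sections of each mouse and in each section; sections were compared in 1 fit of all 48 libraries in 8 groups. Alternatives were DESeq2 1.42.0, other scalings, other filters and region rules, blocks, and leaving out mice. The code was tested on simulated data. The replicates are separate mice.

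The members and lists were chosen with earlier results of these data known. The text names the 5 genes and the 3 regions with the smallest p in each comparison, the regions over promoters and the genes that passed.

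The 4 sections of a mouse come from the same animal (median correlation of their deviations 0.0248, -0.0571 to 0.255 over 72 pairs), so the fit with mouse as a block stands beside the section results where it changes them. Sample titles carry a code that pairs 1 ConvR and 1 GermFree mouse in 5 cases, with no stated meaning.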

Additional observations from a re-analysis of the deposited data

Results flagged for a closer look

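Of 222 groups of 5 or 7 mice examined, 8 held a mouse that stood apart from the others by Dixon's criterion at its 95% level, which chance passes in about 1 group in 20. The values are CPM. At Malt1 in ileum, ConvR mouse 1 had 50.95 (the others 8.328 to 17.34), and at the region beside Malt1 it had 51.58 (8.339 to 17.5). Malt1 has only this region, so these are the same counts under the scaling of genes and of regions, and they make 1 observation. ConvR mouse 1 also stood apart at the first promoter region of Zap70 in jejunum, with 25.45 (15.57 to 18.31).

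At Pik3cd in duodenum, GermFree mouse 1 had 97.13 (105.2 to 110.9), and at the Pik3cd region shared with Clstn1 in colon, GermFree mouse 4 had 23.55 (35.33 to 43.83). At Lck in ileum, GermFree mouse 7 had 43.45 (27.66 to 33.49). At Prkcq in ileum, ConvR mouse 5 had 37.91 (42.73 to 44.14). At the Vav2 region from 27314277 in colon, GermFree mouse 1 had 2.054 (4.331 to 5.606).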

How the results depend on the processing

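Of the log2 differences of named genes under an alternative, 1021 kept direction and side of the threshold, 11 crossed to significance, 22 lost it and 3 changed sign; for named regions 648 kept both, 6 crossed, 17 lost significance and 5 changed sign. The joint test over sections has no direction: its 153 gene and 60 region values kept their side of the threshold. The sign changed for Pik3cd in duodenum (0.0498) and Csk in ileum (0.21) with regions of 1 gene only, and for Malt1 in duodenum without ConvR mice 1 and 3 (0.32). In the sums it changed for the promoter region of Cd79a without ConvR mice 1 and 3 (0.0138), with the mouse number as replicate block (0.0148) and without 1 mouse (-0.0655 to 0.0388), and for that of Lck without 1 mouse (-0.0378 to 0.0658). With that block Sos2 did not pass in jejunum (-0.28, adjusted p 0.0501 in edgeR), nor Rasgrp3 in the sums (0.35, adjusted p 0.0918); with the title code as block Sos2 passed in duodenum (-0.36, adjusted p 0.0443). Mice of 1 number share only that number (correlation -0.131 to 0.0588 over 5 pairs). With the mouse number as replicate block 1 member gene passed in ileum (Malt1, log2 -1.41, adjusted p 0.014 in edgeR), as with the title code as block (1 gene, -1.32, adjusted p 0.0176). Leaving out 1 mouse gave 0 to 1 genes in ileum (Malt1 without ConvR mouse 4) and 1 to 2 genes between colon and small intestine, where Zap70 passed without ConvR mouse 3. With regions of 1 gene only, 0 genes passed between colon and small intestine. For regions, leaving out 1 mouse gave 0 to 1 in the sums (without ConvR mouse 4), 0 to 1 in ileum and 1 to 5 between colon and small intestine. In ileum 0 regions passed with DESeq2 and 0 without ConvR mice 1 and 3. Between colon and small intestine 5 regions passed with mouse as replicate block. The cause of these changes was not tested. A member region had a median of 18 counts a library, and the median 95% interval of a region in the sums reached 0.217 on either side of its log2 value.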
